A study of Mus musculus with 9 samples.

Results

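The genes described here are 9 chemokines and cytokines that epithelial cells of the gut can make (Ccl28, Ccl20, Ccl25, Cxcl16, Cxcl1, Cxcl5, Cx3cl1, Il18 and Tslp), taken by symbol from the 48795 genes of the deposited table. Ccl28 was chosen on a measured value, the difference between genotypes in its change with FICZ, so its levels and changes are given as a description with no test. Of the 9 genes, 8 had a mean of 10 or more normalised counts over the 9 libraries and entered the fit, and Tslp did not. Ccl28 is left out of every count of calls below, which are over the 7 others that were tested.

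RNA-seq was carried out on mouse colon organoids, cultures of epithelial cells grown from colonic crypts. They came from Villin-Cre Ahr fl/fl mice (AHR KO), in which Cre under the Villin promoter deletes the aryl hydrocarbon receptor in intestinal epithelium, and from wild type (WT) littermates on a C57BL/6 background. Organoids of both genotypes were grown in WENR, a medium with Wnt-3A, EGF, Noggin and R-spondin-1 that keeps stem cells dividing, to which the study's methods add nicotinamide and the kinase inhibitors A83-01 and SB202190. They were given either the solvent DMSO or 5 nM FICZ, a high-affinity AHR ligand, for 4 h. There were 2 libraries of WT DMSO (replicates 2 and 3), 3 of WT FICZ (1, 2 and 3), 2 of AHR KO DMSO (1 and 3) and 2 of AHR KO FICZ (1 and 3). The mice's ages are not given in the sources used here.

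The sum of normalised counts ranged from 23177058 to 25033827 over the libraries, and low values repeated in steps of 0.80 to 1.10, which is about what 1 read was worth. The Ahr count did not fall in the libraries labelled AHR KO: it was 782.7 to 858.0 in the 5 WT libraries and 1346 to 1443 in the 4 AHR KO libraries. A count over the whole gene includes exons outside a deleted part and so does not check the deletion, and each direction between genotypes below rests on the labels. Cyp1a1, the detoxifying enzyme most widely used as a readout of AHR, did separate the labels under FICZ, with 6987 to 7958 normalised counts in WT and 100.3 and 138.8 in AHR KO. Under DMSO it had 0 and 5.84 in WT and 0 and 2.93 in AHR KO, so that it also rose with FICZ in the libraries labelled AHR KO (adjusted p = 0.00209). No fold is given, since both AHR KO DMSO values are under a floor of 3 counts. Tiparp, another AHR target, had 4923 to 5723 in WT FICZ and 1137 and 1304 in AHR KO FICZ. Summed over 7 epithelial markers, the libraries held 298933 to 325290 normalised counts, most of them from keratins. Of 9 immune markers, Ptprc, Lyz2 and Adgre1 were listed at 0 in all libraries and 6 were at 3 or under in each. Cd68 (475.3 to 712.0 normalised counts) and Csf1r (5.86 to 17.4) were present in each library and made up most of the summed level of the list, 482.1 to 725.7.

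Chemokines are small secreted proteins that draw leukocytes along a gradient by binding receptors on them, and are grouped by the spacing of their first cysteines into CC, CXC and CX3C families. Gut epithelium uses them to place lymphocytes under the surface and, under attack, to call neutrophils. IL-18 and TSLP are cytokines that epithelium makes as signals to lymphocytes and dendritic cells, and IL-18 is made as an inactive precursor that caspase-1 cleaves.

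The genes differed widely in level. Per kb of the longest annotated transcript, and as means over the 9 libraries, the order was Cxcl5 with 1279 normalised counts per kb, Cxcl16 with 1242, Cx3cl1 with 505.3, Il18 with 152.5, Cxcl1 with 84.6, Ccl20 with 84.5, Ccl28 with 83.4 and Ccl25 with 29.8. Cxcl5 (695.8 to 1999 normalised counts per kb over the libraries) and Cxcl16 (1077 to 1461) overlapped. Cxcl1 (28.3 to 173.1), Ccl20 (21.3 to 189.3) and Ccl28 (11.8 to 201.4) overlapped each other and both Il18 (54.1 to 242.6) and Ccl25 (22.7 to 42.6), while Il18 lay above Ccl25 in all libraries. Cx3cl1 (404.1 to 608.6) lay apart from the others. The order moved with the group. Cxcl16 lay above Cxcl5 in WT (1223 against 939.4 normalised counts per kb under DMSO and 1141 against 732.9 under FICZ) and below it in AHR KO (1269 against 1895 and 1386 against 1824). Il18 lay above Ccl20 and Cxcl1 in WT (235.6 against 48.5 and 53.6 normalised counts per kb under DMSO) and below them in AHR KO (90.3 against 134.8 and 136.0). For Ccl28, at 183.0 ± 20.3 normalised counts per kb in WT FICZ (SD, n = 3) it lay beside Il18 (198.0 ± 19.4), and at 15.6 ± 5.32 in AHR KO FICZ (SD, n = 2) it was under the other 7 genes that passed the filter.

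**Figure D1:**
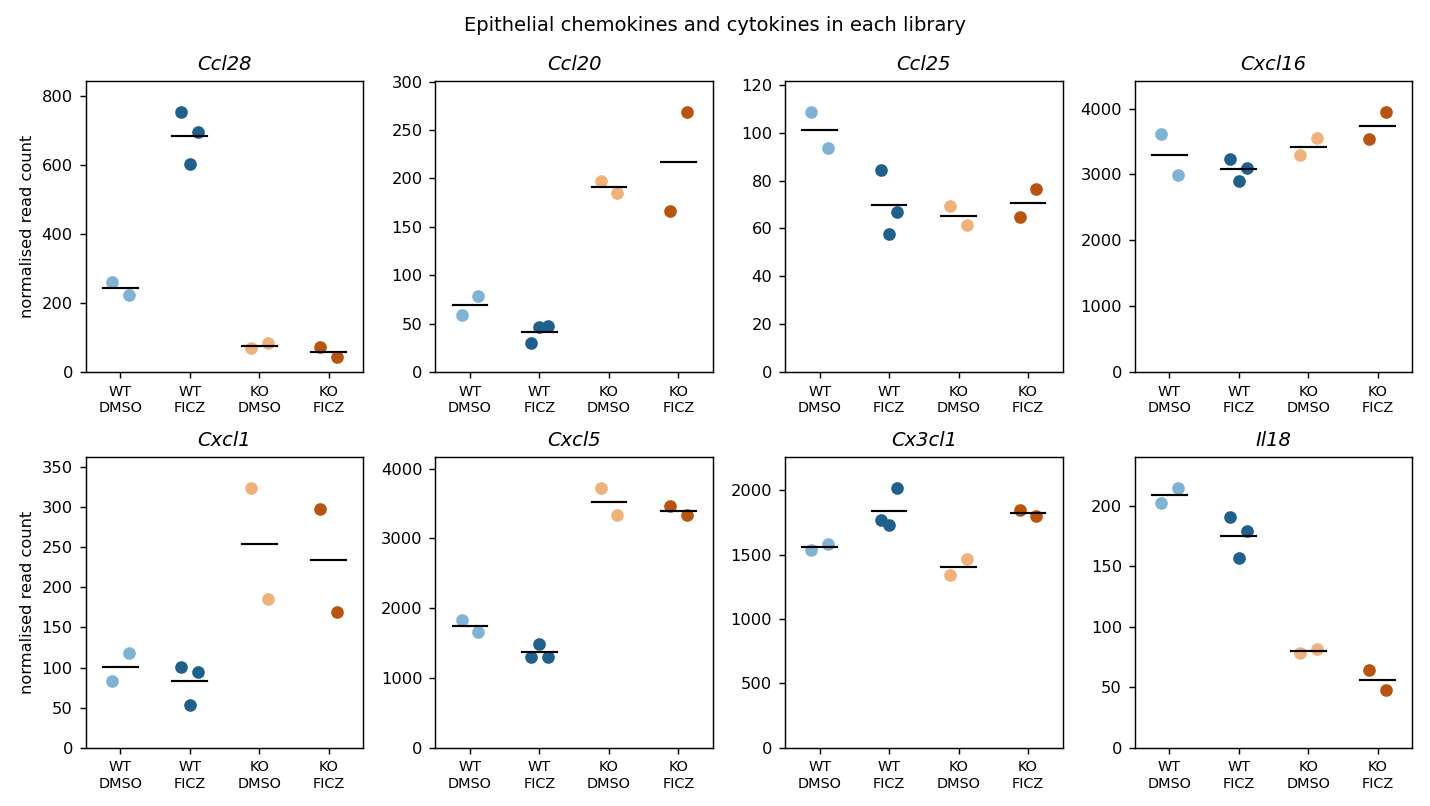
Normalised read counts (vertical axes, from 0) of the 8 genes that passed the filter in each of the 9 libraries, with 1 point per library and a bar at the group mean. The Ccl28 libraries of WT FICZ sit between 603.1 and 753.4, above every other library, and Ccl20 and Cxcl5 are higher in each AHR KO library than in any WT library.

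Ccl28 (ENSMUSG00000074715, chromosome 13, 119623819 to 119654359 on GRCm38, plus strand) encodes the mucosal CC chemokine that draws IgA-secreting plasma cells through CCR10. In WT DMSO, replicates 2 and 3 held 261.9 and 223.4 normalised counts of it, and WT FICZ replicates 1, 2 and 3 held 753.4, 603.1 and 696.8. In AHR KO it had 70.6 and 83.0 under DMSO and 72.3 and 44.2 under FICZ, in replicates 1 and 3. The 3 WT FICZ libraries were thus the highest and the 4 AHR KO libraries the lowest, and the DMSO and FICZ libraries overlapped within AHR KO but not within WT. The mean in WT FICZ was 2.82 times that in WT DMSO. On the scale of log2(value + 1), the change with FICZ was 1.49 ± 0.20 (SE) in WT and -0.43 ± 0.22 in AHR KO, a difference of 1.92 ± 0.29. Without AHR KO FICZ replicate 1 the change in AHR KO was -0.78, and without AHR KO FICZ replicate 3 it was -0.082, which put the difference at 2.27 and 1.57. Between genotypes, the WT mean was 3.16 times the AHR KO mean under DMSO and 11.8 times under FICZ. Of the 50-base words in its longest transcript, 0.244% also occur in other genes.

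The 250 bases before the RefSeq start of Ccl28 are shown with those of Ccl20, Il18 and Cxcl1, the genes with the next widest differences between genotypes under FICZ that are in the RefSeq promoter table for GRCm38.p6. Capitals mark GCGTG on either strand (CACGC as read here), the core of the DNA element that AHR binds, and matches on either strand to the consensus of NF-kB, a factor that switches on many chemokine genes. The NF-kB motif was chosen after values had been seen.
Ccl28, chr13:119623569-119623818, plus strand: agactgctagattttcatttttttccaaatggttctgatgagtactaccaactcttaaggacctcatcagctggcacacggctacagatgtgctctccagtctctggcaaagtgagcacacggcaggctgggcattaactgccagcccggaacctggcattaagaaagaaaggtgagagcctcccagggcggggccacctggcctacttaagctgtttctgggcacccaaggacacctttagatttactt
Ccl20, chr1:83116516-83116765, plus strand: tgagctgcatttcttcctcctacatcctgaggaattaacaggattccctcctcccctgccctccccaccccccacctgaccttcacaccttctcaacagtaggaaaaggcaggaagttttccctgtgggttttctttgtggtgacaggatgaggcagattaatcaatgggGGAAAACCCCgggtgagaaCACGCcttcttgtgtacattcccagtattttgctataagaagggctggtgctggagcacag
Cxcl1, chr5:90890995-90891244, plus strand: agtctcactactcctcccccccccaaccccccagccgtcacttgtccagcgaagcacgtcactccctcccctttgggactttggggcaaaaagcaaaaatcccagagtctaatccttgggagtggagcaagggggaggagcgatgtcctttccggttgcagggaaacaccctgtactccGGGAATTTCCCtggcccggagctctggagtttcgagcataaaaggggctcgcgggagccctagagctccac
Il18, chr9:50554450-50554699, plus strand: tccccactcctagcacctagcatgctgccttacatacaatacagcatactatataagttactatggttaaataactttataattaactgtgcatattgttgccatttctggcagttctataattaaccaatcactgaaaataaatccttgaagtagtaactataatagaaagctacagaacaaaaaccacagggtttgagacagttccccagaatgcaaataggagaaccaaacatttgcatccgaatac
The gene coordinates given below are those of GENCODE, whose starts differ from the RefSeq ones for Il18 and Cxcl1 among the genes shown. The Il18 window ends before the GENCODE start, so the bases next to that start were not searched. The Ccl28 and Il18 windows hold neither motif. That of Ccl20 holds an NF-kB match that begins 80 bases before the start and the AHR core 61 bases before it, and that of Cxcl1 holds 2 NF-kB matches that overlap each other, 71 and 70 bases before the start. Of 32851 promoters in the table, cut to the same length, 28.2% hold the AHR core and 3.90% an NF-kB match. A match is a run of letters and was not tested as a site. Of the 9 genes, 6 were found in the table.

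The first question was which of the other genes changed with FICZ where the receptor is present. In WT, 2 of the 7 were called by limma (adjusted p under 0.05), with Cx3cl1 higher and Cxcl5 lower. Over all 12741 genes tested 30.8% were called in this comparison, 15.1% higher and 15.7% lower, so the share of these genes lay near the background. In AHR KO only Cx3cl1 of the 7 was called, and it was higher, against 19.7% of all genes tested (10.2% higher and 9.48% lower). The difference between genotypes in the change with FICZ was called for 0 of the 7 by limma. At an unadjusted p under 0.05 it passed for 2 of them, Ccl20 and Cxcl5, both with a lower change in WT. Over all genes tested 0.447% were called for that difference (0.377% with the higher change in WT and 0.0706% with the higher change in AHR KO), and 7.47% passed at the unadjusted p.

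The second question was which differed between genotypes. Under DMSO, 3 of the 7 were called (Ccl20 and Cxcl5 higher in AHR KO, Il18 lower), against 9.05% of all genes tested (4.21% higher and 4.83% lower). Under FICZ, 5 of the 7 were called: Ccl20, Cxcl5, Cxcl1 and Cxcl16 were higher in AHR KO and Il18 was lower, against 20.0% of all genes tested (9.48% higher and 10.5% lower). The median log2 difference between genotypes over the 7 that were tested was 0.06 under DMSO and 0.28 under FICZ, beside -0.011 and -0.0040 over all genes tested, and single genes ran from -1.37 to 1.47 and from -1.63 to 2.35. The 4 groups are compared in pairs that share libraries, and the comparisons are therefore not independent of each other.

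**Figure D2:**
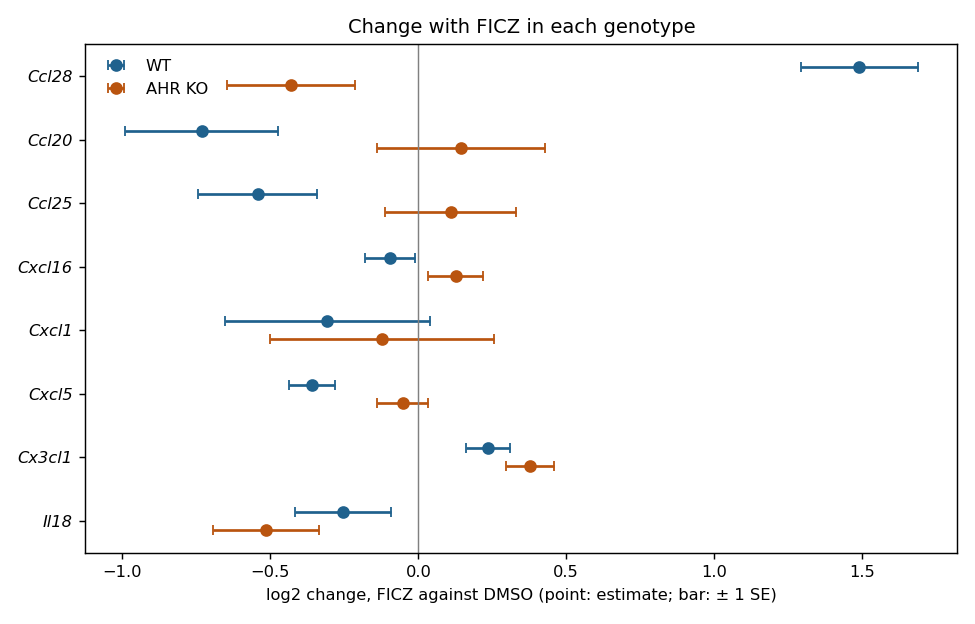
Change with FICZ against DMSO (horizontal axis, log2 scale) in WT and in AHR KO for the 8 genes that passed the filter, with the estimate as a point and 1 SE as a bar. The WT and AHR KO points of Ccl28 lie at 1.49 and -0.43, while those of Cx3cl1 both lie above 0, at 0.24 and 0.38.

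Ccl20 (ENSMUSG00000026166, chromosome 1, 83116766 to 83119167, plus strand) encodes the CC chemokine that binds CCR6 and draws dendritic cells, B cells and Th17 cells to epithelium over lymphoid follicles. Its normalised counts were 59.2 and 78.3 in WT DMSO, 30.2, 46.5 and 47.6 in WT FICZ, 197.1 and 184.9 in AHR KO DMSO, and 166.1 and 268.3 in AHR KO FICZ, in the order of the replicate numbers. Each AHR KO library was above each WT library. The mean in AHR KO was 2.78 times that in WT under DMSO (log2 difference 1.47 ± 0.28, SE, adjusted p = 0.0102) and 5.24 times under FICZ (2.35 ± 0.26, adjusted p = 1.53e-04). The call under DMSO was lost without WT DMSO replicate 2 (adjusted p = 0.0793), AHR KO DMSO replicate 1 (0.0770) or AHR KO DMSO replicate 3 (0.0704), with log2 differences of 1.27 to 1.52. With FICZ in WT the log2 change was -0.73 ± 0.26, with no overlap between the groups but an adjusted p of 0.0551. Over the 21 alternative settings it ranged from -0.93 to -0.37 and was called under 2. These were the fits without AHR KO FICZ replicate 1 or 3, where its value was unchanged. In AHR KO the change was 0.14 ± 0.28, and the DMSO libraries lay between the 2 FICZ libraries. The difference between these changes, -0.88, had a 95% interval of -1.73 to -0.02 and an adjusted p of 0.650, and ranged from -1.22 to -0.53 without single libraries.

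Ccl25 (ENSMUSG00000023235, chromosome 8, 4325210 to 4360020, plus strand) encodes the CC chemokine that brings CCR9-bearing lymphocytes to the small intestine. The colon organoids had 108.6 and 93.6 normalised counts in WT DMSO, 84.4, 57.8 and 66.9 in WT FICZ, 69.3 and 61.5 in AHR KO DMSO, and 64.8 and 76.7 in AHR KO FICZ. The 2 WT DMSO libraries were above the 7 others, which overlapped. No comparison was called: the log2 change with FICZ in WT was -0.54 ± 0.20 (adjusted p = 0.0654), and the difference between genotypes under DMSO was -0.62 ± 0.22 (adjusted p = 0.116). The change in WT was called without WT FICZ replicate 1, at -0.69 (adjusted p = 0.0362), and under quantile normalisation, at -0.61 (adjusted p = 0.0372). Over the 20 alternatives run for this gene it ranged from -0.69 to -0.33, and it was called under these 2 only. Under FICZ the genotypes differed by 0.03 (95% interval -0.42 to 0.48). Of its 7445 exonic bases, 204 are shared with Elavl1 on the opposite strand, and it is not stated whether reads were counted by strand.

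Cxcl5 and Cxcl1 encode CXC chemokines that draw neutrophils through CXCR2. Cxcl5 (ENSMUSG00000029371, chromosome 5, 90759360 to 90761624, plus strand) had 1836 and 1664 normalised counts in WT DMSO, 1307, 1493 and 1296 in WT FICZ, 3725 and 3334 in AHR KO DMSO, and 3465 and 3330 in AHR KO FICZ. It was higher in each AHR KO library than in any WT library, and higher in each WT DMSO library than in any WT FICZ library. The AHR KO mean was 2.02 times the WT mean under DMSO (log2 difference 1.01 ± 0.09, adjusted p = 1.30e-04) and 2.49 times under FICZ (1.32 ± 0.08, adjusted p = 4.63e-06). Both differences were called under each of the 21 alternative settings. Cxcl5 fell with FICZ in WT, by 0.36 ± 0.08 on the log2 scale (adjusted p = 0.00748), and in AHR KO its change was -0.05 ± 0.09. The difference between these changes was -0.31 (95% interval -0.57 to -0.05, adjusted p = 0.545). The fall in WT was no longer called without WT DMSO replicate 2 (adjusted p = 0.0795) or once each library was corrected for GC content and transcript length, where it was -0.16 (adjusted p = 0.136). Of the 50-base words in its longest transcript, 0.730% occur in other genes.

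Cxcl1 (ENSMUSG00000029380, chromosome 5, 90891241 to 90893115, plus strand), which lies on the same chromosome as Cxcl5, had 82.7 and 117.9 normalised counts in WT DMSO, 100.3, 52.9 and 95.0 in WT FICZ, 323.9 and 184.9 in AHR KO DMSO, and 297.6 and 169.6 in AHR KO FICZ. Each AHR KO library was above each WT library, and within AHR KO both libraries of replicate 1 were above both of replicate 3. The AHR KO mean was 2.82 times the WT mean under FICZ (log2 difference 1.49 ± 0.35, adjusted p = 0.0135). Without AHR KO FICZ replicate 1 that difference was 1.08 with an adjusted p of 0.120. Under DMSO the ratio of means was 2.54 and the call was missed (log2 difference 1.30 ± 0.38, adjusted p = 0.0625). It was called with only these 2 groups in the fit (adjusted p = 0.0292) or without WT FICZ replicate 2 (0.0312). Over the 21 alternative settings this log2 difference ranged from 0.70 to 1.70, and it was called under these 2 only. With FICZ the log2 change was -0.31 ± 0.35 in WT and -0.12 ± 0.38 in AHR KO, both with intervals that span 0. Without single libraries it ranged from -0.56 to -0.017 in WT and from -0.53 to 0.28 in AHR KO.

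**Figure D3:**
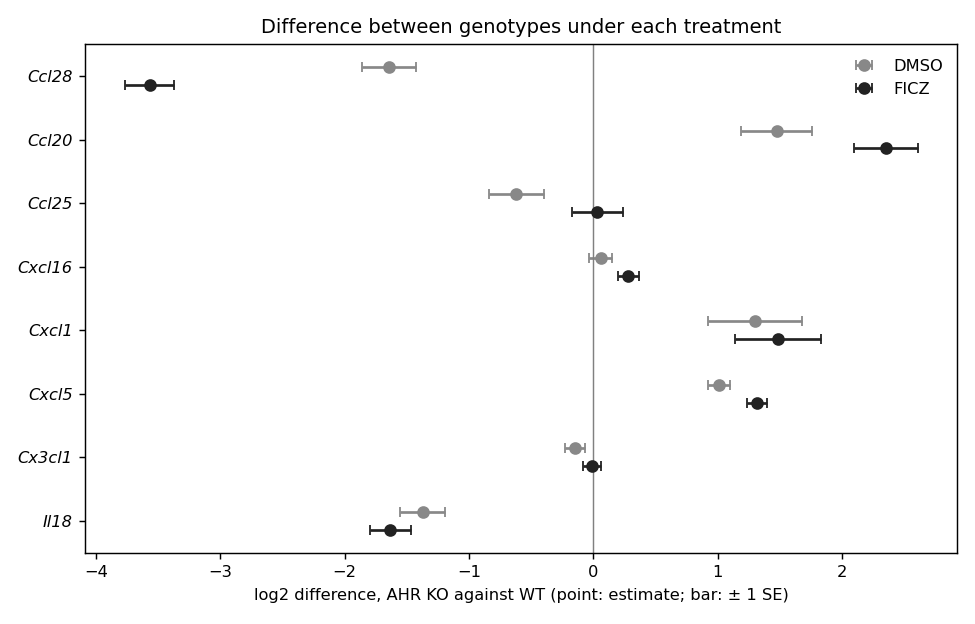
Difference between AHR KO and WT (horizontal axis, log2 scale) under DMSO and under FICZ for the 8 genes that passed the filter, with the estimate as a point and 1 SE as a bar. Ccl20, Cxcl1 and Cxcl5 lie at 1.01 or above under both treatments, Il18 at -1.37 and -1.63, and Ccl28 at -1.65 and -3.57.

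Cxcl16 and Cx3cl1 encode chemokines made as transmembrane proteins, which can hold cells at the surface or be cut loose by ADAM10 and ADAM17. Cx3cl1 (ENSMUSG00000031778, chromosome 8, 94772009 to 94782427, plus strand), the ligand of CX3CR1 on macrophages, had 1535 and 1578 normalised counts in WT DMSO, 1769, 1728 and 2017 in WT FICZ, 1339 and 1467 in AHR KO DMSO, and 1844 and 1799 in AHR KO FICZ. Each FICZ library was above each DMSO library. It rose with FICZ in both genotypes, 1.18 times in WT (log2 change 0.24 ± 0.07, adjusted p = 0.0350) and 1.30 times in AHR KO (0.38 ± 0.08, adjusted p = 0.0118). The difference between these changes was -0.14 (95% interval -0.39 to 0.10, adjusted p = 0.870). Neither call held once libraries were corrected for GC content and transcript length, where the changes were 0.03 (adjusted p = 0.800) and 0.15 (0.276). The call in WT was also lost without WT DMSO replicate 2 (adjusted p = 0.165), WT DMSO replicate 3 (0.104) or WT FICZ replicate 3 (0.0987), and that in AHR KO without AHR KO DMSO replicate 1 (0.113) or AHR KO FICZ replicate 1 (0.0536). Between genotypes Cx3cl1 differed by -0.15 (95% interval -0.33 to 0.03) under DMSO and by -0.01 (-0.17 to 0.16) under FICZ.

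Cxcl16 (ENSMUSG00000018920, chromosome 11, 70453983 to 70459984, minus strand), the ligand of CXCR6 on T cells, varied least over the libraries. It had 3608 and 2995 normalised counts in WT DMSO, 3236, 2907 and 3092 in WT FICZ, 3294 and 3553 in AHR KO DMSO, and 3535 and 3944 in AHR KO FICZ. The WT DMSO libraries overlapped those of WT FICZ and AHR KO DMSO, and under FICZ both AHR KO libraries were above the 3 of WT. That difference was 1.21-fold (log2 difference 0.28 ± 0.09, adjusted p = 0.0440) and was called under 11 of 21 alternative settings, with adjusted p of 0.0182 to 0.275. It was lost without any 1 of AHR KO DMSO replicates 1 and 3, the 3 WT FICZ libraries and the 2 AHR KO FICZ libraries (log2 differences 0.20 to 0.36). The changes with FICZ were -0.10 ± 0.09 in WT and 0.13 ± 0.09 in AHR KO, neither of them called. Of its 3021 exonic bases, 552 are shared with Zmynd15 on the opposite strand.

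Il18 (ENSMUSG00000039217, chromosome 9, 50554827 to 50581840, plus strand) went the other way from Cxcl5 and Ccl20 between genotypes. Its normalised counts were 202.4 and 214.7 in WT DMSO, 190.4, 156.6 and 178.7 in WT FICZ, 78.3 and 81.5 in AHR KO DMSO, and 64.5 and 47.9 in AHR KO FICZ. All 4 AHR KO libraries were below all 5 WT libraries, and in each genotype the FICZ libraries were below the DMSO libraries. The WT mean was 2.61 times the AHR KO mean under DMSO (log2 difference -1.37 ± 0.18, adjusted p = 0.00137) and 3.12 times under FICZ (-1.63 ± 0.16, adjusted p = 8.36e-05), and both were called under each of 21 alternative settings. The changes with FICZ were not called, at -0.25 ± 0.16 in WT (adjusted p = 0.268) and -0.51 ± 0.18 in AHR KO (adjusted p = 0.0692). Without single libraries that in AHR KO ranged from -0.73 to -0.30. The value of -0.73 came without AHR KO FICZ replicate 1, the only 1 of 21 alternatives under which it was called.

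Tslp (ENSMUSG00000024379, chromosome 18, 32815383 to 32819797) encodes an epithelial cytokine of type 2 immunity. Its values were 0 in 6 libraries and 0.939, 0.968 and 1.07 in WT DMSO replicate 3, AHR KO DMSO replicate 3 and AHR KO FICZ replicate 3, about 1 read each. All 9 values are under a floor of 3 counts, so Tslp was not detectable at this depth in any group and no fold is given. The floor covers counting error only.

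Markers of cell types moved with genotype in the same libraries. Of 7 epithelial markers, Epcam (log2 difference -0.43, adjusted p = 0.00846 under DMSO and -0.46, 0.00145 under FICZ) and Cdx2 (-0.43, 0.0191 and -1.08, 2.23e-05) were lower in AHR KO, and Krt18 was higher under FICZ (0.38, 0.00575). Cdx2, a transcription factor of intestinal identity, also rose with FICZ in WT (log2 change 0.80, adjusted p = 2.71e-04). Summed over 8 goblet cell markers, there were 3692 to 5912 normalised counts in the WT libraries and 1310 to 1803 in the AHR KO libraries. Of the 5 goblet markers tested, Clca1, Agr2 and Fcgbp were lower in AHR KO under both treatments. Under DMSO their log2 differences were -2.21 (adjusted p = 2.99e-04), -1.22 (0.0167) and -0.79 (0.0203). Summed over 8 colonocyte markers there were 1406 to 1843 normalised counts in WT and 611.8 to 1028 in AHR KO. Of the 4 colonocyte markers tested, Krt20 (log2 difference -0.72, adjusted p = 0.0281) and Ceacam20 (-1.06, 0.0393) were lower in AHR KO under DMSO, and all 4 were lower under FICZ. Over all genes tested, 4.83% were lower in AHR KO under DMSO and 10.5% under FICZ. Among the defining markers, Muc2 had 73.1 to 434.6 normalised counts and Slc26a3 4.16 to 35.6, and none was at 0 in all libraries. The part of these markers and cell types in the differences of Ccl28, Il18, Ccl20, Cxcl5 and Cxcl1 was not tested, and in bulk libraries fewer cells of a type and less RNA per cell cannot be told apart. With FICZ, 0 of the 5 goblet and 0 of the 4 colonocyte markers tested were called in either genotype by limma, with 1 of each passing an unadjusted p under 0.05 in WT, and 0 and 1 in AHR KO, beside 30.8% of all genes tested called in WT and 19.7% in AHR KO. Fibroblast and endothelial markers summed to 22.0 to 116.2 normalised counts over 9 genes, most of it Pdgfrb, and 6 of the 9 were at 3 or under in each library. Pdgfrb, the only one of them tested, was lower in AHR KO under DMSO (log2 difference -1.60, adjusted p = 0.0155) and FICZ (-1.55, 0.00533).

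The genes of 6 lists around these 9 were counted in the same fit, and up to 6 called genes per list and comparison were followed through the 21 alternative settings. Corrected for GC content and transcript length, all 16 calls between genotypes under DMSO and all 28 under FICZ were kept. Of the calls with FICZ, 17 of 26 were kept in WT and 2 of 16 in AHR KO, those of Mif and Pycard, and lost calls are marked as such below. Shares of all genes tested are given for the uncorrected fit only. Without each single library in turn, 7 of 16 calls under DMSO and 18 of 28 under FICZ between genotypes held throughout, with 11 of 26 for FICZ in WT and 2 of 16 in AHR KO.

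Of 31 other chemokines, 10 were listed at 0 in all libraries and 8 were tested. With FICZ in WT, 4 of the 8 fell: Ccl7 (log2 change -1.83, adjusted p = 0.00601, lost without WT DMSO replicate 3) and Ccl2 (-1.09, 0.00982, lost without either WT DMSO library), which draw monocytes, the interferon-induced T cell chemokine Cxcl10 (-1.25, 0.00217) and the neutrophil chemokine Cxcl2 (-0.62, 0.0378). The call of Cxcl2 was lost without any 1 of 4 libraries and with the correction, where it was at -0.47 (adjusted p = 0.131). Mif, a cytokine with chemokine-like activity, rose in WT (0.64, adjusted p = 1.32e-04) and in AHR KO (0.77, 4.74e-04), and was the only one of the 8 called in AHR KO. After the correction its changes were 0.24 and 0.36. In all, 4 of the 8 were lower and 1 higher in WT, beside 15.7% and 15.1% of all genes tested, and 1 was called in AHR KO, beside 19.7%. The median change was -0.85 in WT and 0.27 in AHR KO, beside -0.01 for all genes in both. The difference between genotypes in the change with FICZ was called for 0 of the 8 by limma, and 5 passed at an unadjusted p under 0.05, beside 0.447% and 7.47% of all genes tested.

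The CCR2 ligand Ccl2 and the CXCR2 ligands Cxcl2 and Cxcl3 were higher in AHR KO. Ccl2 had 77.0 and 78.8 normalised counts in WT DMSO, 27.1, 42.9 and 40.5 in WT FICZ, 178.1 and 231.5 in AHR KO DMSO, and 202.8 and 328.3 in AHR KO FICZ. Its AHR KO libraries were above all WT libraries (log2 difference 1.37, adjusted p = 0.0136 under DMSO and 2.80, 4.98e-05 under FICZ). Cxcl2 differed by 0.96 (adjusted p = 0.0214) and 1.84 (1.30e-04), and Cxcl3 by 1.95 (0.0366) and 2.75 (0.00207). Ccl7 was lower in AHR KO under DMSO (-1.83, adjusted p = 0.0235), by -1.19 without AHR KO DMSO replicate 1 and -2.48 without replicate 3. Under DMSO, these calls were lost without any 1 of 3 libraries for Ccl2 and Ccl7 and of 4 for Cxcl2 and Cxcl3. These were the genes called between genotypes, 4 of 8 under DMSO and 3 of 8 under FICZ, beside 9.05% and 20.0% of all genes tested.

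Of 30 other cytokines in the table, 9 were listed at 0 in all libraries, among them Il6, Il1b and Il22, and 16 were tested. Il33, an alarmin of barrier tissue, had 583.7 and 512.1 normalised counts in WT DMSO, 247.5, 357.9 and 321.1 in WT FICZ, 2098 and 2052 in AHR KO DMSO, and 1675 and 1889 in AHR KO FICZ. It fell with FICZ in WT (-0.84, adjusted p = 0.00170) and was higher in AHR KO under DMSO (1.92, 7.74e-05) and FICZ (2.54, 2.14e-06). Csf1, the growth factor of macrophages, fell with FICZ in WT (-0.47, adjusted p = 0.0245, lost without any 1 of 3 libraries, with changes of -0.65 to -0.30, and with a replicate block) and was higher in AHR KO under both treatments (1.06, 0.00184 and 1.85, 1.47e-05). Il34, which shares the receptor of Csf1, was higher in AHR KO by 1.31 (adjusted p = 0.00101) and 1.56 (6.15e-05). Tgfb3 had 4.71 normalised counts or fewer in WT and 40.1 to 49.8 in AHR KO, and was called higher in AHR KO under both treatments (adjusted p = 0.00195 and 2.69e-04). Its WT values lie about the floor of 3 counts and the fitted difference moved with the pseudocount, so no fold is given. Tnfsf13b, which encodes the B cell survival factor BAFF, was lower in AHR KO (-1.64, adjusted p = 2.71e-04 and -1.40, 1.05e-04). Tnfsf15 also fell with FICZ in WT (-1.22, adjusted p = 0.00556), while Il1rn, the IL-1 receptor antagonist, rose (0.45, 0.00262) and so did Tnfsf9 (0.46, 0.0261), whose call held under 13 of 21 alternatives. In AHR KO, Lif (0.42, adjusted p = 0.0296) and Tnf (0.28, 0.0378) rose with FICZ. Without single libraries the change of Lif ranged from 0.23 to 0.60 and that of Tnf from 0.18 to 0.38, and the calls were lost without any 1 of 3 and of 5 libraries. They were also lost with the correction, at 0.32 (adjusted p = 0.129) and 0.24 (0.113). The calls were 5 of 16 in WT and 2 of 16 in AHR KO with FICZ, beside 30.8% and 19.7% of all genes tested, and 5 of 16 under DMSO and 9 of 16 under FICZ between genotypes, beside 9.05% and 20.0%.

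**Figure D4:**
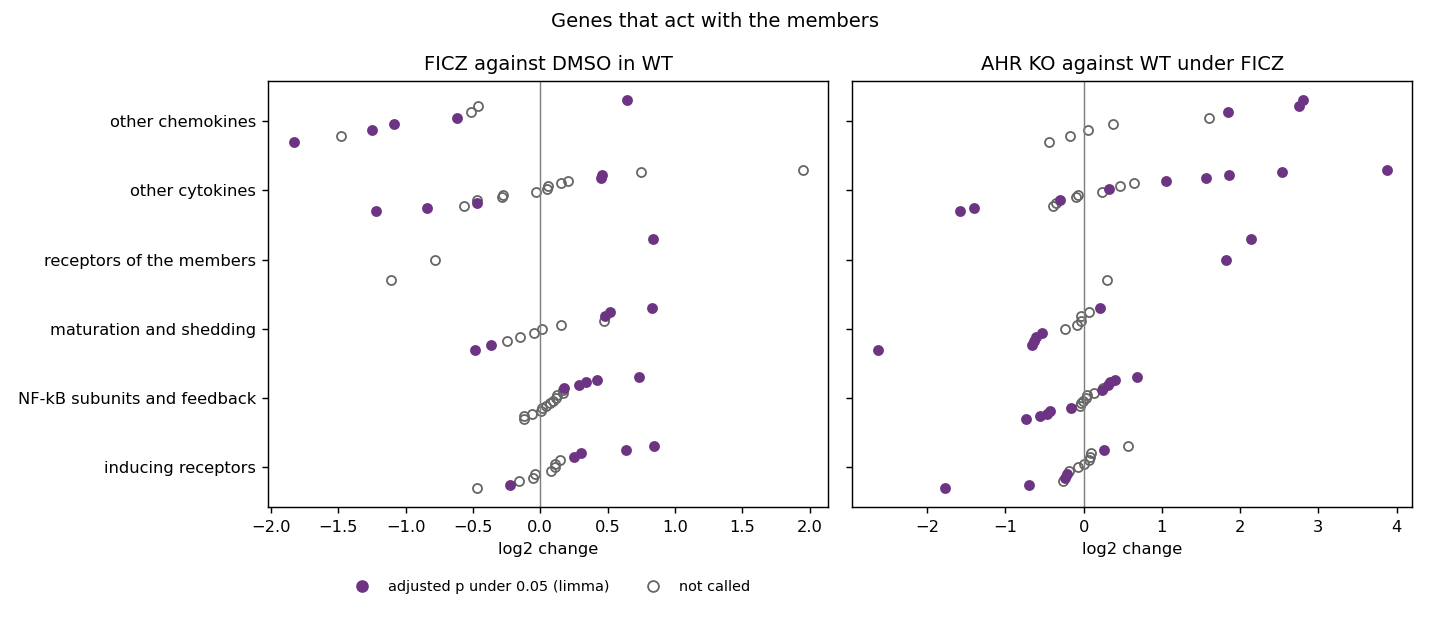
Log2 change (horizontal axes) of each tested gene of 6 lists, with FICZ in WT (left) and between AHR KO and WT under FICZ (right), with filled points for genes called by limma. Among other chemokines 4 filled points lie left of 0 and 1 right of it in WT, and 3 lie right of 0 between genotypes.

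The receptors through which these signals act were mostly at or near 0. Of 14 receptors, 7 were listed at 0 in all libraries (Ccr10, Ccr6, Ccr9, Cxcr6, Cx3cr1, Il7r and Ackr1) and 3 were tested. Crlf2, which encodes the TSLP receptor chain, rose with FICZ in WT (0.84, adjusted p = 0.00590) and in AHR KO (1.36, 0.00237), but not once corrected for GC content and length (0.21, 0.465 and 0.76, 0.0604). Il18r1 and Il18rap, the chains of the IL-18 receptor, were higher in AHR KO under FICZ (2.14, adjusted p = 0.0143 and 1.82, 0.0385), at 9.37 to 105.5 normalised counts over all libraries. The call of Il18rap held under 13 of 20 alternatives and was lost without any 1 of 6 libraries, and that of Il18r1 without AHR KO FICZ replicate 3.

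Genes of the inflammasome, which cleaves the IL-18 precursor, and of shedding formed a list of 14, of which 11 were tested. Between genotypes 3 of the 11 were lower in AHR KO under DMSO, beside 4.83% of all genes tested, and 5 under FICZ, beside 10.5%, where 1 was higher. Nlrp6, an inflammasome sensor of gut epithelium, had 682.7 and 790.1 normalised counts in WT DMSO, 1242, 1224 and 1472 in WT FICZ, 212.2 and 185.6 in AHR KO DMSO, and 281.3 and 157.0 in AHR KO FICZ. Its WT FICZ libraries were the highest and its AHR KO libraries the lowest, in the order seen for Ccl28. The log2 difference of Nlrp6 between genotypes was -1.88 under DMSO (adjusted p = 7.96e-04) and -2.63 under FICZ (1.88e-05), and its change with FICZ in WT was 0.83 (0.0119). Pycard, the adaptor of the inflammasome, was lower in AHR KO (-0.72, adjusted p = 0.00641 and -0.66, 0.00294) and rose with FICZ in both genotypes (0.52, 0.00774 in WT and 0.58, 0.0121 in AHR KO). The calls of Nlrp6 and Pycard with FICZ in WT were lost without WT DMSO replicate 2, that of Pycard in AHR KO without replicate 1 of either treatment, and that of Pycard between genotypes under DMSO without AHR KO DMSO replicate 1. Nlrc4, another sensor, was lower in AHR KO under both treatments (-0.43, adjusted p = 0.0161, lost without any 1 of 4 libraries, and -0.64, 4.98e-04), and Casp1 under FICZ (-0.54, 0.00471, lost without AHR KO FICZ replicate 3). Gsdmd, the pore through which IL-18 leaves cells, rose with FICZ in WT (0.48, adjusted p = 5.96e-04) and was lower in AHR KO under FICZ (-0.61, 1.02e-04). The DNA sensor Aim2 fell with FICZ in WT (-0.37, adjusted p = 0.00291) and in AHR KO (-0.25, 0.0381), and Casp4 fell in WT (-0.48, 0.00518). Casp1 fell in AHR KO (-0.43, adjusted p = 0.0263), where Furin rose (0.24, 0.0427). These changes of Aim2, Casp4, Casp1 and Furin with FICZ were no longer called after the correction, where Aim2 was at -0.19 and -0.06, Casp4 at -0.26, Casp1 at -0.19 and Furin at 0.04. Without single libraries the change of Casp1 ranged from -0.59 to -0.27. Of the sheddases, Adam17 was higher in AHR KO under FICZ (0.21, adjusted p = 0.0404), a call that held under 10 of 21 alternatives and was lost without any 1 of 7 libraries, with differences of 0.12 to 0.29.

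Of 18 genes of NF-kB subunits and feedback, 17 were tested, and 5 rose with FICZ in each genotype with none lower, beside 15.1% of all genes tested that were higher in WT and 10.2% in AHR KO. In WT these were Bcl3 (0.74, adjusted p = 2.35e-04), Nfkbiz (0.42, 0.00343), Nfkbib (0.34, 0.0165), Nfkbia (0.28, 0.00134) and Tnfaip3 (0.17, 0.0437). The call of Tnfaip3 held under 10 of 21 alternatives and was lost without any 1 of 8 libraries, with changes of 0.09 to 0.26. In AHR KO they were Nfkbib (0.46, 0.0112), Relb (0.38, 0.0110), Nfkb2 (0.37, 0.00417), Bcl3 (0.31, 0.0259) and Nfkbia (0.22, 0.0121). After the correction Bcl3 was at 0.27 (adjusted p = 0.0223) and Nfkbib was lost in WT, at 0.06 (0.659). All 5 were lost in AHR KO, where Nfkb2, Relb, Nfkbib and Nfkbia were at 0.04 to 0.17 and Bcl3 changed sign to -0.15. Between genotypes, Tnfaip3, a brake on NF-kB, was lower in AHR KO under DMSO (-0.38, adjusted p = 0.00463, lost without AHR KO DMSO replicate 3), which is 1 call in 17, beside 9.05% of all genes tested. Under FICZ 10 of the 17 were called, 5 in each direction, beside 9.48% higher and 10.5% lower over all genes tested, with Nfkbiz (-0.74, 1.18e-04) and Bcl3 (-0.56, 5.83e-04) lower in AHR KO and Nfkb2 (0.40, 8.21e-04) and Nfkb1 (0.34, 0.00508, lost without AHR KO FICZ replicate 3) higher. The median difference was 0.03 under FICZ, beside -0.0040 over all genes tested.

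Of 15 receptors and adaptors listed as able to induce chemokine and cytokine genes, 13 were tested for a change in level. Whether they induce the 9 genes in these organoids was not tested. The IL-17 receptor chains Il17rc (0.85, adjusted p = 0.00250) and Il17ra (0.64, 0.00441) rose with FICZ in WT, as did Tnfrsf1a (0.25, 0.00889) and Il22ra1 (0.30, 0.0307), while Ifngr1 fell (-0.23, 0.0147). In AHR KO Il17ra (0.45, adjusted p = 0.0472) and Myd88 (0.28, 0.0482) rose and Tlr1 fell (-0.91, 0.0132). Of these changes with FICZ only that of Il17ra in WT was called after the correction (0.52, adjusted p = 0.0148), and before it that call was lost without WT DMSO replicate 2. The others kept their direction, with Tlr1 in AHR KO at -0.77 (adjusted p = 0.0539) and Ifngr1 in WT at -0.17 (0.0510), Il17rc, Il22ra1 and Tnfrsf1a in WT at 0.41, 0.13 and 0.08, and Il17ra and Myd88 in AHR KO at 0.34 and 0.18. Tlr1 and Tlr2, receptors for bacterial lipoproteins, were lower in AHR KO under DMSO (-1.34, adjusted p = 0.00264 and -0.58, 0.0136) and under FICZ (-1.77, 1.02e-04 and -0.70, 0.00125), and the DMSO call of Tlr2 was lost without any 1 of 3 libraries. Ifngr2, a chain of the interferon gamma receptor, was also lower under both treatments (-0.35, adjusted p = 0.0135 and -0.21, 0.0418, lost without any 1 of 3 and of 5 libraries, the latter with differences of -0.29 to -0.14). Under FICZ Tnfrsf1a was lower (-0.25, adjusted p = 0.0127) and Ifngr1 higher (0.26, 0.0105), and both calls were lost without AHR KO FICZ replicate 1. The calls among the 13 were 5 in WT and 3 in AHR KO with FICZ, beside 30.8% and 19.7% of all genes tested, and 3 under DMSO and 5 under FICZ between genotypes, beside 9.05% and 20.0%. In the receptor, inflammasome, NF-kB and inducing lists, as among other cytokines, 0 genes were called by limma for the difference between genotypes in the change with FICZ. At an unadjusted p under 0.05, 0 of 3, 2 of 11, 4 of 17, 0 of 13 and 6 of 16 passed in that order, beside 7.47% of all genes tested. Of the calls in these lists and among other chemokines that were followed under the alternatives, up to 6 for each list and comparison, those that held without each library in turn were 11 of 26 with FICZ in WT, 2 of 16 with FICZ in AHR KO, 7 of 16 between genotypes under DMSO and 18 of 28 under FICZ.

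The 4 protein-coding genes outside the 9 whose log2 levels were most like those of Ccl28 over the 9 libraries were Hnf4a (Pearson r = 0.991), Sytl2 (0.990), Irak4 (0.988) and Blnk (0.988). These r are a description: the points share libraries and are set by the order of 4 groups. Sytl2, an effector of vesicle transport, came closest to Ccl28 in size, with mean normalised counts of 428.4 in WT DMSO, 947.3 in WT FICZ, 112.8 in AHR KO DMSO and 101.2 in AHR KO FICZ. Hnf4a, a nuclear receptor of gut epithelium, had 12174 ± 488.0 (SD, n = 2) in WT DMSO, 15342 ± 758.7 (SD, n = 3) in WT FICZ, and 8594 and 8466 as means in AHR KO. The log2 change with FICZ in WT was 1.15 for Sytl2, 0.62 for Blnk, 0.33 for Hnf4a and 0.15 for Irak4, against 1.49 for Ccl28.

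**Figure D5:**
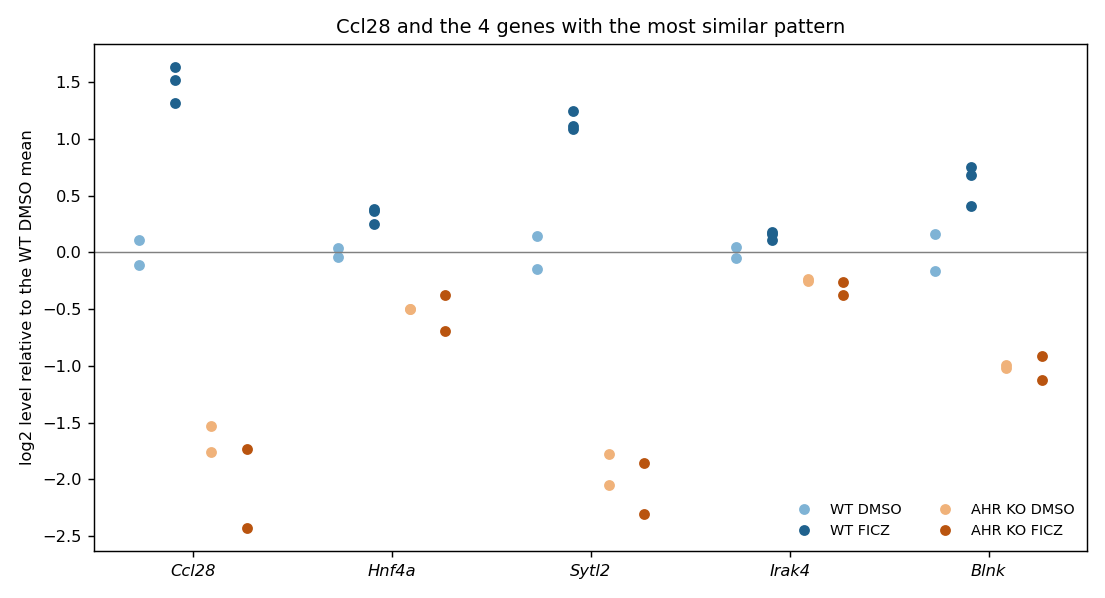
Levels of Ccl28 and of the 4 genes with the most similar pattern in each library (vertical axis, log2 of value + 1, relative to the WT DMSO mean of the same gene), coloured by group. In each gene the WT FICZ libraries lie above 0 and the AHR KO libraries below it, with the widest spread in Ccl28 and the narrowest in Irak4.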

How the data were processed

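RNA was sequenced by the authors from stranded libraries depleted of ribosomal RNA. The table the authors deposited gives a normalised signal, an estimated read count per Ensembl gene (48795) and library (9) that can be fractional. The submitters' processing notes name RSEM 1.2.31, STAR 2.5.2a, DESeq2 1.16.1 and the build GRCm38. The study's methods name another counting program, and whether reads were counted by strand is not given in the sources used here. Because the values are not counts, no count model was applied.

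Symbols came from GENCODE M21 (99.3% of identifiers matched). Values were transformed as log2(value + 1), which understates changes of low genes, and the 12741 genes averaging at least 10 were fitted with limma 3.58.1 in R 4.3.3 (lmFit, eBayes with trend), with 4 groups and 5 two-sided contrasts. Benjamini-Hochberg adjustment was over all genes tested, at 0.05. The script was tested on simulated data. The methods give 3 biological replicates per genotype, and 2 to 3 libraries per group limit precision. Intervals are 95%. Members, gene lists and alternatives were chosen with earlier results of these data known. Genes named were the 9 members, up to 6 called genes per list and contrast by adjusted p (of which the text gives most), those most like Ccl28, and Ahr, Cyp1a1 and Tiparp. Some genes that these rules or lists hold are not reported here. A total of 21 alternatives were run, which are other pseudocounts, filters, scalings and models, and leaving out each library.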

Additional observations from a re-analysis of the deposited data

Results flagged for a closer look

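Ccl28 stood out because its change with FICZ differed between genotypes, by 1.92 on the log2 scale, with each WT FICZ library above each WT DMSO library. It was chosen for this difference, so no test is given. Csf1 stood out by direction: each WT FICZ library (228.7 to 266.0 normalised counts) lay below both WT DMSO libraries (302.6 and 387.1), and both AHR KO FICZ libraries (784.1 and 1019) lay above both AHR KO DMSO libraries (706.8 and 727.6). The difference between its changes was -0.79 and was not called (limma adjusted p = 0.230). Its change with FICZ in WT ranged from -0.65 to -0.30 without single libraries. Opposite directions without overlap were not particular to Csf1. Slc26a3 rose with FICZ in WT and fell in AHR KO (difference 1.88, adjusted p = 0.326), and Krt18 fell in WT and rose in AHR KO (-0.22, 0.727). Groups of 2 or 3 libraries are too small for the check of single outlying libraries, which was not run.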

How the results depend on the processing

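Over 723 log2 changes of the 7 tested genes other than Ccl28 under 21 alternatives, 688 kept their side of the threshold or stayed uncalled, 28 lost a call, 7 gained one and 0 called values changed sign. With uncalled values included, 24 of the 723 changed sign, as did 26 of 619 medians of gene lists. Of the counts of these genes called with FICZ, that in WT went from 2 to 3 under quantile normalisation, to 1 with no filter on low values and with only the groups compared in the fit, and to 0 with the trend with GC content and transcript length removed, without and with a replicate block. Both of these last fits also gave 0 in AHR KO in place of 1. The shares of all genes tested in the text are from the main fit, and none is given for the corrected fits. Over all 21 alternatives, the genes called over the whole table ranged from 1882 to 4133 with FICZ in WT and from 420 to 2961 in AHR KO. Whether the loss of calls is particular to these genes was therefore not tested. Leaving out single libraries gave 0 to 3 in WT, 0 to 1 in AHR KO, 2 to 4 between genotypes under DMSO and 3 to 5 under FICZ. It also moved the change of Ccl28 in AHR KO between -0.78 and -0.082, that in WT between 1.38 and 1.60 and their difference between 1.57 and 2.27. The difference in change was called for 0 of the 7 under each of 20 alternatives. Without single libraries, the genes called over the whole table ranged from 1990 to 4133 with FICZ in WT, 420 to 2961 with FICZ in AHR KO, 23 to 78 for the difference in change, and 389 to 1465 under DMSO and 1312 to 3084 under FICZ between genotypes. No alternative varied depth. Within a genotype, deviations of the DMSO and FICZ libraries with the same replicate number correlated at 0.0346 to 0.0498 over genes. Both values in AHR KO are 0.0346, since deviations in a group of 2 mirror each other, and they count as 1. The labels give both treatments replicates 2 and 3 in WT and 1 and 3 in AHR KO, and the fit without a block was kept as the main one. The replicate block joined libraries by number across genotypes, although the labels name WT and AHR KO lines separately, so it does not pair the genotypes. With the replicate block, the genotype difference of Cxcl16 under FICZ was 0.30 (adjusted p = 0.0642), and the other calls of the 7 genes held. Of 1794 values for called genes of the lists, 1571 stayed called, and the change of Bcl3 in AHR KO reversed to -0.15 with GC content and length corrected for, without and with the block. The cause was not tested. TMM scaling and quantile normalisation moved the median of all genes by at most 0.0266 in size.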
